A study of Mus musculus with 18 samples.

Results

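The proteasome subunit and assembly genes were followed in bone marrow-derived macrophages (BMDMs) from RIPK1 T169A knock-in mice and from C57BL/6J (B6) mice. The set was defined by name: gene IDs that matched a protein-coding symbol beginning Psma, Psmb, Psmc, Psmd, Psme, Psmf or Psmg and a digit, with Psmb8 and Psmb9 set aside. It held 48 of the 56953 gene IDs counted. Of these, 7 encode the alpha ring of the 20S core, 7 its constitutive beta ring, 3 immunoproteasome or tissue-specific core subunits, 6 the ATPases of the 19S cap, 3 its other base subunits, 8 its lid, 7 assembly chaperones, 5 activators and 1 the regulator PI31. The remaining symbol, Psmc3ip, matched by prefix alone and encodes a meiotic recombination factor.

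Marrow cells had grown for 7 days in medium with 20% serum and 30% L929 supernatant, a source of macrophage colony-stimulating factor. The 18 libraries formed 6 groups of 3: T169A cells given LPS/5z7 for 2 h, T169A cells given LPS for 2 h, unstimulated T169A cells, and the same 3 conditions in B6 cells. T169A replaces a threonine of RIPK1, a kinase of inflammatory and cell death signalling, with alanine. LPS, a bacterial cell wall component, activates Toll-like receptor 4. What 5z7 stands for is not in the labels; the name is often used for oxozeaenol, an inhibitor of the kinase TAK1. No group received 5z7 without LPS, and the doses are not given in the sources used here. The titles carry 1 of 3 letters per genotype, shared by the 3 conditions, and nothing says whether a letter stands for an animal or a culture, so p-values measure the spread between these libraries, which may be technical.

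The proteasome is the protease that degrades ubiquitin-tagged proteins: a barrel of alpha and beta rings cuts them, and the 19S cap recognises, unfolds and feeds them in. In immune cells, inducible beta subunits can replace the constitutive catalytic ones, and the PA28 activator made of Psme1 and Psme2 can cap the barrel. Both changes are known for altering the peptides offered to T cells, and interferon is their best known inducer. Many core and cap genes are also known to respond together, through the transcription factor NFE2L1, when proteasome activity falls short.

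Promoters are shown for 5 members on which the results below turn: 4 that were higher with LPS in both genotypes and Psmd5, the member that was higher when 5z7 was added. Each window runs from 250 bases before to 50 bases after a RefSeq start (build GRCm38.p6), read 5′ to 3′ on the gene's strand. Capitals mark a match, on either strand, to 1 of 4 letter patterns: GAAA, any 2 bases and GAAA for the interferon-stimulated response element, GGGA, any 4 bases and CC for the NF-kB site, TGACNNNGC for the antioxidant response element and TTCNNNGAA for the gamma-activated site.
Psme1, chr14:55578244-55578543, plus strand: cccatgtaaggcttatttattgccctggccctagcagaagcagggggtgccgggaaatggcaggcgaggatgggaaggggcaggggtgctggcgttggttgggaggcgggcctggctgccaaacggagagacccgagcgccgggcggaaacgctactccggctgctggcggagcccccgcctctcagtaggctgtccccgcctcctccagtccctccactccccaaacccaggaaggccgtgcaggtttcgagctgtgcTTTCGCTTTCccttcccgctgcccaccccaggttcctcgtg
Psme2, chr14:55590972-55591271, minus strand: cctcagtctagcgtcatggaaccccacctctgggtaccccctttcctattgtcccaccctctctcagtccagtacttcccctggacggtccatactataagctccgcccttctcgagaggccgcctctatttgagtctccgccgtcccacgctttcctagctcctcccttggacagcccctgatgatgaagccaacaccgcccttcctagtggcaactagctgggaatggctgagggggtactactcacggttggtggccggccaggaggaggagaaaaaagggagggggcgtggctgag
Psma6, chr12:55398575-55398874, plus strand: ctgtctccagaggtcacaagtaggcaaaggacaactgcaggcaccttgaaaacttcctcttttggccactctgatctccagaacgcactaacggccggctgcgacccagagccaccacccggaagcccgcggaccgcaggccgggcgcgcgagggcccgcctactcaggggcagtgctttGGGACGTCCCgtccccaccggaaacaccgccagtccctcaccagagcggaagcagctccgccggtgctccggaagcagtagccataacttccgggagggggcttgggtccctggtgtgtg
Psmd11, chr11:80428365-80428664, plus strand: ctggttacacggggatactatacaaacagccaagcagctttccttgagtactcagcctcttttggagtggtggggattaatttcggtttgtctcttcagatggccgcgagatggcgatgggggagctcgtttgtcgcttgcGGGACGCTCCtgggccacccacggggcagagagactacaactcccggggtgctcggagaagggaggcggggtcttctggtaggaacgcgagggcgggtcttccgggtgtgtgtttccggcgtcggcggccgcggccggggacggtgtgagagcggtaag
Psmd5, chr2:34870913-34871212, minus strand: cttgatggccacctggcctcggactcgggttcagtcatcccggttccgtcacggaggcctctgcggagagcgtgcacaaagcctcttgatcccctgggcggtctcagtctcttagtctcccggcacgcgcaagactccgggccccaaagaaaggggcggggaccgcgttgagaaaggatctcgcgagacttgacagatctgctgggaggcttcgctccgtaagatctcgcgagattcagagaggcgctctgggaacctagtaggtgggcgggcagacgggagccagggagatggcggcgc

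The capitals in the Psme1 window are the interferon pattern read on the opposite strand, and those in the Psma6 and Psmd11 windows are the NF-kB pattern. Psma6 has another RefSeq start, at chr12:55383972-55384271, whose window matched none of the 4 patterns. Psmd5 and both Psme2 starts had no match either. Neither did the windows, not shown, of Psmb10 and Psmd10, which were also among the largest rises with LPS. A window was available for 40 members, some with more than 1 start. The interferon pattern was in the windows of 5 members (Psmb3, Psmd4, Psmd9, Psme1 and Psmg4), 12.5% of the 40 against 4.0% of all 27025 genes with a window. The NF-kB pattern was in 11 members, 27.5% against 22.9%. The antioxidant pattern was in 6 members (Psmb5, Psmb6, Psmc6, Psmd12, Psmd9 and Psme4), 15% against 14%, and the gamma-activated pattern in Psmd2 and Psmg1, 5.0% against 9.6%. Both strands were searched, a window can hold more than 1 pattern (Psme4, for instance, holds the antioxidant and the NF-kB patterns), and a match describes letters and not a bound site.

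Libraries held 14.6 to 30.4 M counts, and the proteasome genes took 0.351% to 0.458% of them. Macrophage markers summed to 31100 to 41340 CPM (library-scaled counts, TMM) in every library, with all 7 detected. Neutrophil markers summed to 14.6 to 47.4 CPM, fibroblast and stromal markers to 3.04 to 12.1 CPM, T cell markers to 2.49 to 5.67 CPM and dendritic cell markers to 0.163 to 3.13 CPM. B cell, NK cell and mast cell markers reached at most 0.276 CPM, and the 3 erythroid markers were at 0. The neutrophil sum was higher with LPS (29.2 to 47.4 CPM in T169A and 29.3 to 36.5 CPM in B6) than without (19.2 to 27.9 CPM in T169A and 14.6 to 24.5 CPM in B6). The sum of the 4 dendritic cell markers was also higher with LPS (1.36 to 2.17 CPM in T169A and 2.17 to 2.41 CPM in B6) than without (0.163 to 0.236 CPM in T169A and 0.368 to 0.473 CPM in B6). A few genes carried these sums. Across all libraries Zbtb46 had 0.163 to 3.13 CPM, and Flt3, Xcr1 and Siglech at most 0.311 CPM each. Cd4 had 2.49 to 5.67 CPM, and the other T cell markers at most 0.129 CPM each. Among the neutrophil markers S100a8 reached 17 CPM and S100a9 27.17 CPM. Camp had 0.532 to 3.1 CPM across all libraries, Mpo at most 0.6205 CPM, and Ly6g and Elane stayed at or below 0.2151 CPM. Whether such cells were present, and the part of these markers in the results, was not tested. Library 7, 1 of the 3 unstimulated B6 libraries, stood apart and is described below beside the results it touches. In these bulk samples, fewer cells of a type and less RNA per cell cannot be told apart.

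Levels per kilobase of principal transcript differed widely among subunits that assemble into the same particle. In unstimulated T169A cells Psmb6, the beta1 subunit, was highest at 175 ± 10.1 CPM per kb, against 189.6 ± 45.9 CPM per kb in unstimulated B6 cells (SD, n = 3 each). Psmd8 of the lid (117 ± 6.82 in T169A, 119.9 ± 17.1 in B6) and Psme2 (95.6 ± 1.37 in T169A, 119.9 ± 39.0 in B6) came next in CPM per kb. The lowest subunit of the core or cap, leaving out the tissue-specific ones, was Psmd11 of the lid, at 15.8 ± 0.427 CPM per kb in T169A and 15.8 ± 0.459 CPM per kb in B6. The 7 chaperones lay between 5.31 ± 0.291 (Psmd5) and 18.7 ± 1.46 CPM per kb (Psmd10) in unstimulated T169A cells, and between 5.99 ± 0.284 (Psmd5) and 21.8 ± 3.25 CPM per kb (Psmd10) in unstimulated B6 cells. Psma8, the testis alpha subunit, stayed near the floor at 0.550 ± 0.0668 in T169A and 0.573 ± 0.250 CPM per kb in B6, and Psmb11, the subunit of the thymic cortex, had 2 counts in all 18 libraries together. Psmb11 was the 1 member left out by the filter on low counts, so 47 were tested.

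LPS changed most of the set in the same direction. In T169A cells 37 of 47 members rose with LPS and 0 fell, against 30.3% and 31.5% of all 13068 genes tested (edgeR quasi-likelihood test, adjusted p under 0.05, TMM scaling). In B6 cells 24 rose and 3 fell, against 29.6% and 33.5% of all genes. The median log2 fold change of the members was 0.48 in T169A and 0.29 in B6 cells, with medians over all genes of -0.03 and -0.07. Scaling by library size alone lowers every log2 fold change by about the same amount: the all-gene median shifts by -0.58 in T169A and -0.59 in B6. The member calls become 8 higher and 12 lower in T169A and 4 higher and 27 lower in B6. Over all 13068 genes, that scaling called 1934 higher and 8106 lower in T169A, and 1996 and 8484 in B6. Relative to the all-gene median, the members' median was 0.51 higher in T169A and 0.36 higher in B6 under both scalings.

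**Figure D1:**
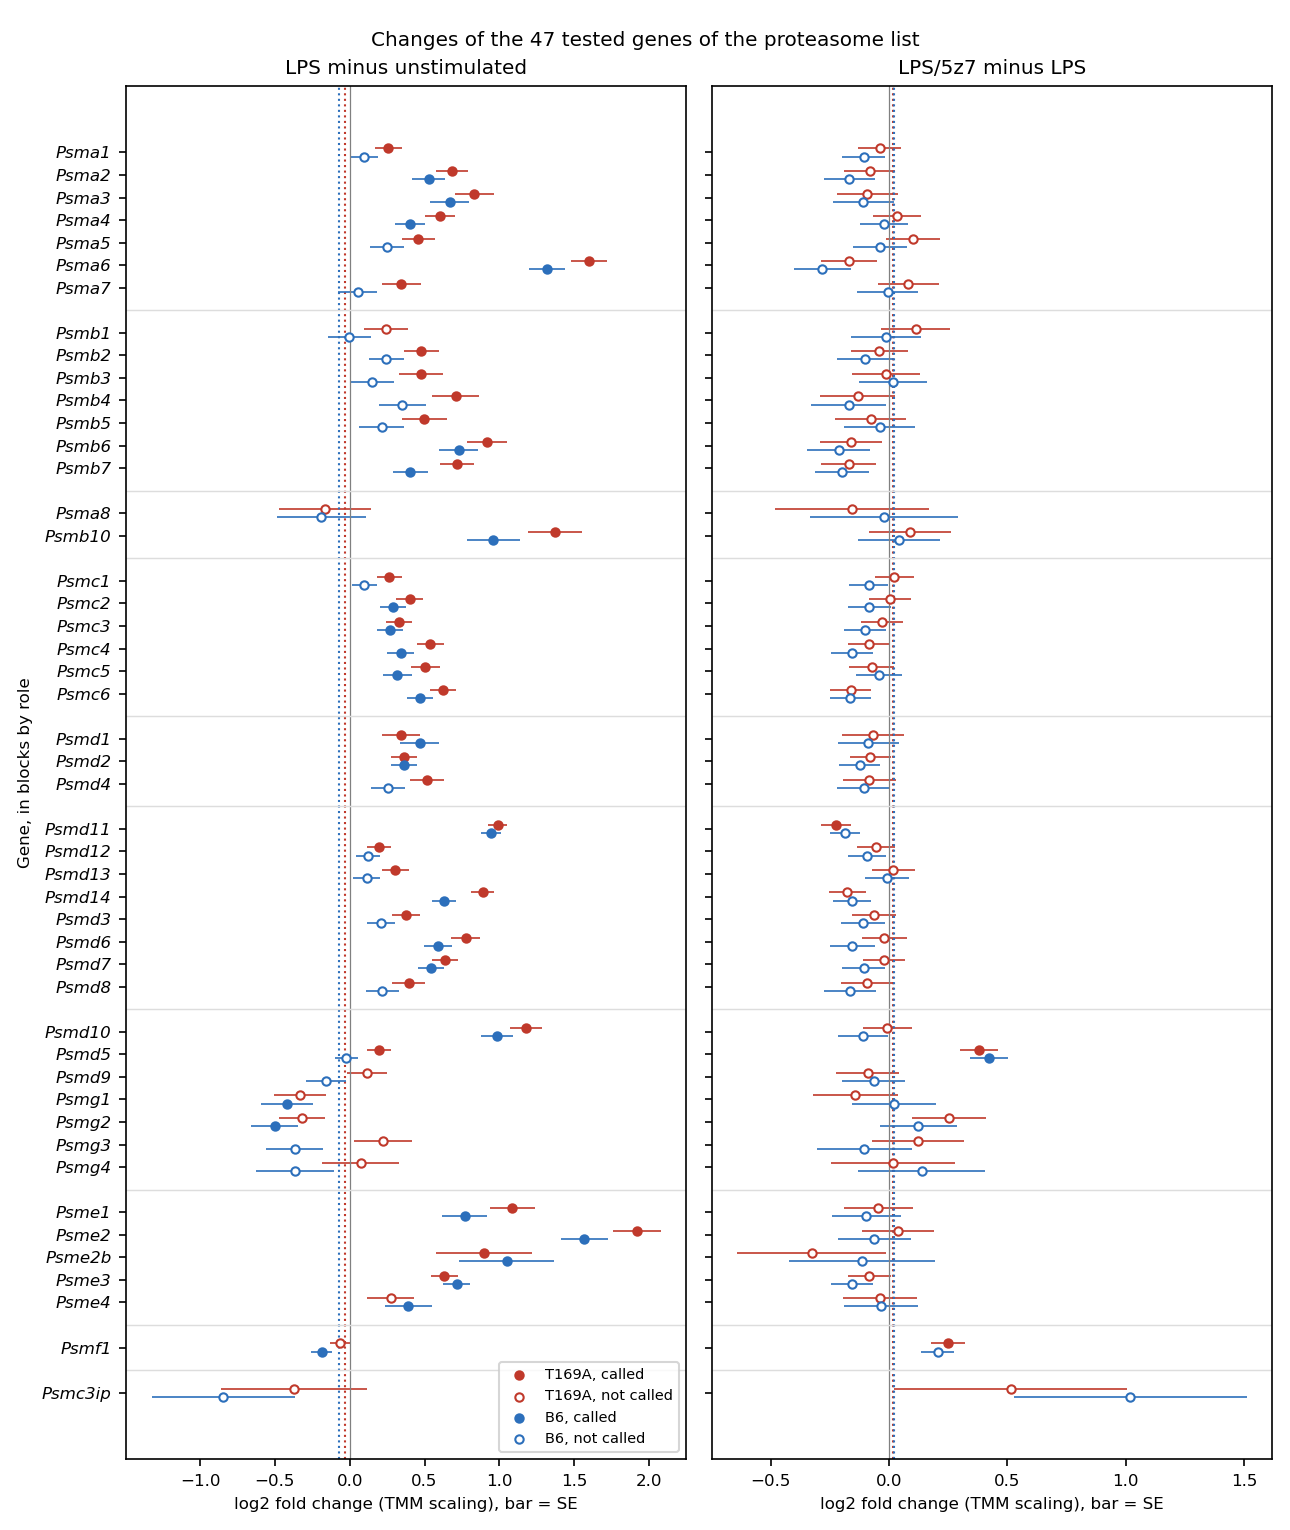
Log2 fold changes (TMM scaling, bars SE) of the 47 tested genes, in blocks by role, for LPS minus unstimulated (left) and LPS/5z7 minus LPS (right). Red is T169A and blue B6; filled points passed an adjusted p of 0.05, and dotted lines are the medians of all genes. Psme2 and Psma6 lie farthest right in the left panel, while in the right panel Psmd5 is the called gene that is higher in both genotypes.

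The activators held the largest rise. Psme2, the PA28 beta subunit (ENSMUSG00000079197.11, chromosome 14), had 319.9, 343 and 382 CPM in T169A cells with LPS, against 90.6, 92.2 and 93.2 CPM in unstimulated T169A cells. In B6 cells it had 312, 329 and 384 CPM with LPS, against 87.8, 100.2 and 158 CPM unstimulated. The groups were far apart in both genotypes, and the highest unstimulated value was that of library 7. The log2 fold change was 1.92 ± 0.16 in T169A (SE, edgeR adjusted p = 1.15e-08) and 1.57 ± 0.16 in B6 (edgeR adjusted p = 1.37e-07). With library size alone Psme2 still rose, by 1.34 in T169A and 0.97 in B6 on the log2 scale.

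Psme1, the PA28 alpha subunit encoded beside Psme2 on chromosome 14, moved with it. It had 173, 186 and 195 CPM in T169A cells with LPS, against 83.4, 86.7 and 90.8 CPM unstimulated, and 164, 172 and 196 CPM in B6 cells with LPS, against 79.4, 92.5 and 141 CPM unstimulated. Groups did not overlap, with log2 fold changes of 1.09 ± 0.15 in T169A (edgeR adjusted p = 6.4e-06) and 0.77 ± 0.15 in B6 (edgeR adjusted p = 0.000233). Library size alone gave Psme1 0.51 in T169A (edgeR adjusted p = 0.00602) and 0.17 in B6, where it did not pass (edgeR adjusted p = 0.297). The promoters of the pair differ in the patterns searched: the interferon pattern is in the Psme1 window printed above and not in that of Psme2.

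Psme3, the nuclear PA28 gamma activator, rose by 0.63 ± 0.09 in T169A (edgeR adjusted p = 9.03e-06) and 0.72 ± 0.09 in B6 (edgeR adjusted p = 2.06e-06). Neither call held with library size alone (0.05 in T169A, edgeR adjusted p = 0.591; 0.12 in B6, edgeR adjusted p = 0.179). The Psme3 libraries held 95.2 to 100.5 CPM with LPS against 58.9 to 69.5 CPM unstimulated in T169A, and 99.6 to 109.0 against 54.5 to 71.0 CPM in B6. Psme4, the large PA200 activator, had 96.1 to 143 CPM with LPS against 88.5 to 104 CPM unstimulated in T169A cells, and 109 to 139 against 74.9 to 114 CPM in B6 cells, overlapping in both. It passed the test in B6 (0.39 ± 0.16, edgeR adjusted p = 0.039) and not in T169A (0.27 ± 0.16, edgeR adjusted p = 0.142). With libraries blocked in sets of consecutive numbers, the T169A value passed (0.257, edgeR adjusted p = 0.0277). The B6 call was lost without library 2, 5 or 7, and with library size alone the value was -0.20. Psme2b, a near-identical copy of Psme2 whose reads may be assigned uncertainly, was low, at 4.02 to 7.19 against 2.20 to 3.69 CPM in T169A and 5.44 to 6.68 against 1.61 to 3.93 CPM in B6. It rose by 0.90 ± 0.32 in T169A (edgeR adjusted p = 0.0228) and 1.05 ± 0.32 in B6 (edgeR adjusted p = 0.0081), and passed in neither with library size alone (0.31 in T169A, 0.47 in B6).

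**Figure D2:**
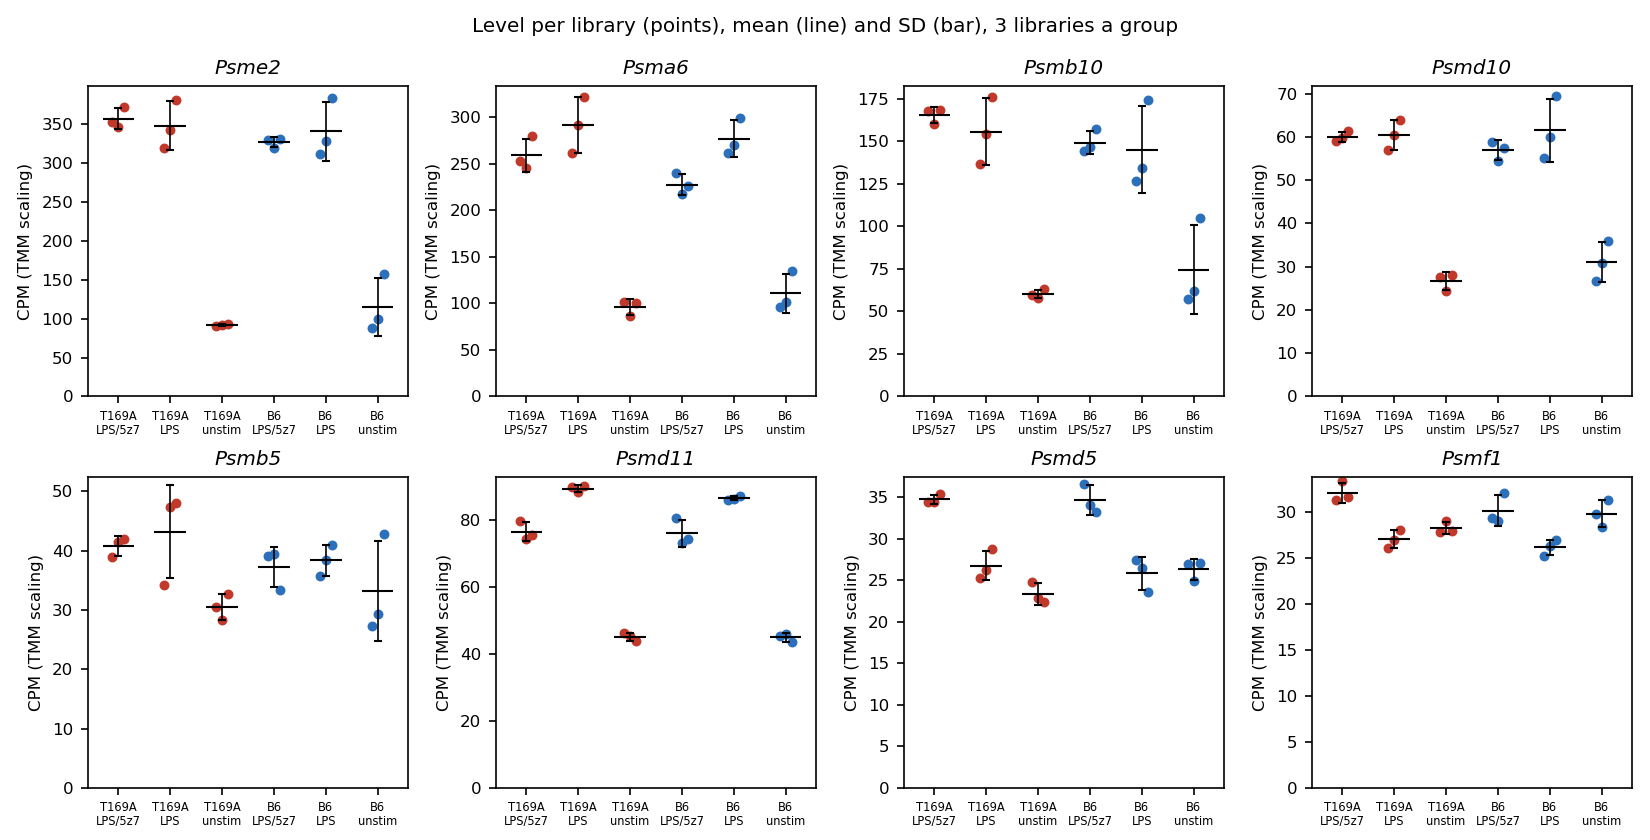
CPM (TMM scaling) of 8 members in each library: points are libraries, lines means and bars SD of 3 libraries, red T169A and blue B6, with LPS/5z7, LPS and unstimulated cells from left to right in each genotype. Psme2, Psma6, Psmb10 and Psmd10 are high in all stimulated libraries, Psmd5 is highest with LPS/5z7, and 1 unstimulated B6 library is above the other 2 for several genes.

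In the alpha ring, which gates the barrel, all 7 members rose in T169A cells and 4 of 7 in B6 cells. Psma6 (ENSMUSG00000021024.15, chromosome 12) stood out, with 262, 292 and 322 CPM in T169A cells with LPS against 86.4, 100.5 and 102 CPM unstimulated. B6 cells had 261, 270.2 and 299 CPM with LPS against 96.5, 101 and 135 CPM unstimulated. No stimulated library reached down to an unstimulated one, and the log2 fold change was 1.60 ± 0.12 in T169A (edgeR adjusted p = 3.95e-09) and 1.32 ± 0.12 in B6 (edgeR adjusted p = 4.47e-08). The other 6 alpha subunits changed by 0.26 to 0.83 in T169A and 0.05 to 0.67 in B6. Psma1, Psma5 and Psma7 were the 3 that passed in T169A alone. Scaled by library size alone, Psma6 was the only alpha subunit called higher (1.02 in T169A, 0.73 in B6). Psma1 was then lower in both genotypes (-0.32 in T169A, -0.496 in B6), and Psma5 (-0.34) and Psma7 (-0.54) were lower in B6.

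Of the 7 constitutive beta subunits, 6 rose in T169A cells and 2, Psmb6 and Psmb7, in B6 cells. Psmb5, which carries the chymotrypsin-like activity, had 34.2, 47.3 and 48.1 CPM in T169A cells with LPS against 28.3, 30.6 and 32.6 CPM unstimulated, and 35.7, 38.5 and 41.0 CPM in B6 cells with LPS against 27.3, 29.4 and 42.8 CPM unstimulated. The T169A groups did not overlap (0.50 ± 0.15, edgeR adjusted p = 0.00826), whereas library 7 lay above every LPS-treated B6 library (0.21 ± 0.15, edgeR adjusted p = 0.229). Without library 7 the B6 value was 0.43 (edgeR adjusted p = 0.00498). Psmb6 had 235 to 294 CPM with LPS against 132 to 148 CPM unstimulated in T169A (0.92 ± 0.13, edgeR adjusted p = 1.19e-05), and 236 to 268 against 121 to 192 CPM in B6 (0.73 ± 0.13, edgeR adjusted p = 0.000135). Psmb7, the trypsin-like subunit, had 91.9 to 108 against 57.5 to 64.9 CPM in T169A (0.72 ± 0.12, edgeR adjusted p = 3.86e-05) and 81.8 to 106 against 61.2 to 83.5 CPM in B6 (0.41 ± 0.12, edgeR adjusted p = 0.0056). Library size alone left Psmb6 higher in T169A (0.34, edgeR adjusted p = 0.0333) and ended its B6 call (0.13, edgeR adjusted p = 0.377), ended both Psmb7 calls (0.14 in T169A, -0.19 in B6) and ended the T169A call of Psmb5 (-0.08, edgeR adjusted p = 0.65). In B6, Psmb1 (-0.596), Psmb2 (-0.35), Psmb3 (-0.44) and Psmb5 (-0.38) were lower under that scaling.

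Psmb10 (ENSMUSG00000031897.10, chromosome 8) encodes the inducible subunit that takes the place of Psmb7 in the immunoproteasome. It had 137, 154 and 176 CPM in T169A cells with LPS against 58.0, 59.5 and 62.9 CPM unstimulated, and 126, 134 and 174 CPM in B6 cells with LPS against 57.1, 61.8 and 105 CPM unstimulated. Every LPS library was above every unstimulated one, and the log2 fold change was 1.37 ± 0.18 in T169A (edgeR adjusted p = 3.23e-06) and 0.96 ± 0.18 in B6 (edgeR adjusted p = 0.00014). With library size alone it was 0.79 in T169A (edgeR adjusted p = 0.000745) and 0.37 in B6 (edgeR adjusted p = 0.0704).

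The ratio of Psmb10 to Psmb7, in counts per kilobase within each library, does not depend on how libraries are scaled. It averaged 1.62 ± 0.101 in T169A cells with LPS/5z7, 1.35 ± 0.0782 with LPS and 0.861 ± 0.0295 unstimulated, and 1.64 ± 0.153, 1.38 ± 0.0707 and 0.925 ± 0.172 in the same conditions in B6 cells (SD, n = 3 each). In both genotypes the 3 conditions did not overlap, in the order LPS/5z7 above LPS above unstimulated. Each of these comparisons reached the smallest p that 3 libraries against 3 allow (two-sided exact permutation test, p = 0.1), so the design cannot pass 0.05 here. The ratio in T169A was 0.941 times that in B6 unstimulated, 0.980 times with LPS and 0.991 times with LPS/5z7, with overlapping groups (exact permutation p = 0.8, 0.6 and 0.9). Library 7 had the highest unstimulated ratio, 1.11, still below the lowest LPS ratio of 1.30.

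**Figure D3:**
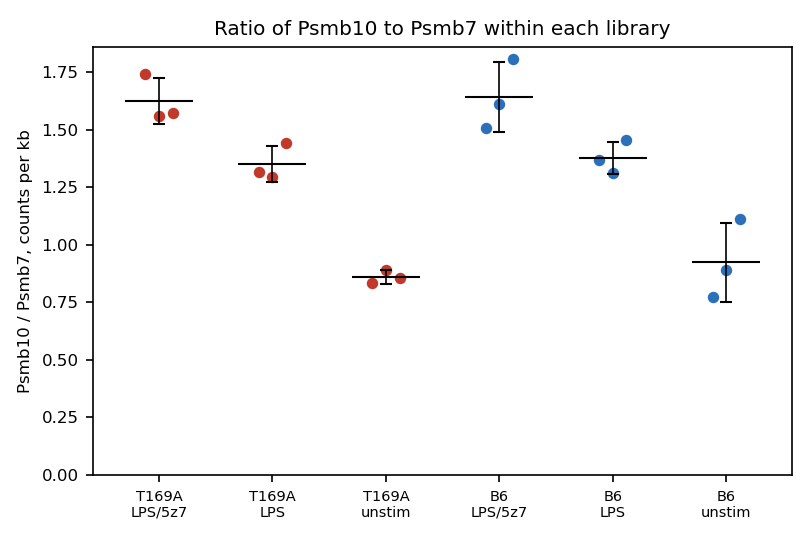
Ratio of Psmb10 to Psmb7 in counts per kilobase, 1 point per library, with mean (line) and SD (bar) of 3 libraries; red T169A, blue B6. LPS/5z7 libraries lie between 1.51 and 1.81, LPS libraries between 1.30 and 1.45, and unstimulated ones between 0.772 and 1.11.

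By Pearson correlation of log2 group means over the 6 groups, the genes most like Psmb10 among all those tested were Manbal (r = 0.999), Vps4a (0.999), Rnf10 (0.998), Pgrmc1 (0.998) and Eva1b (0.998). With 6 points that separate mainly into stimulated and unstimulated groups, many genes can reach such values.

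Under TMM scaling the 19S cap followed the core. All 6 ATPases rose in T169A cells, by 0.27 to 0.63, and 5 of 6 in B6 cells, where Psmc1 changed by 0.10 (edgeR adjusted p = 0.314). No ATPase was called higher with library size alone. Psmc1 (-0.32) and Psmc3 (-0.25) were then lower in T169A. In B6 all but Psmc6 were then lower, from -0.25 (Psmc4) to -0.495 (Psmc1). Of the other base subunits, 3 of 3 rose in T169A and 2 of 3, Psmd1 and Psmd2, in B6. Psmd4, the ubiquitin receptor, had 90.9 to 107 CPM with LPS against 60.1 to 71.9 CPM unstimulated in T169A (0.52 ± 0.11, edgeR adjusted p = 0.000701), and 83.7 to 99.8 against 68.9 to 93.2 CPM in B6 (0.25 ± 0.11, edgeR adjusted p = 0.0585). The B6 value passed without library 7 (0.41, edgeR adjusted p = 0.000735) and without library 2. It also passed with libraries blocked in sets of consecutive numbers (0.262, edgeR adjusted p = 0.0183). With library size alone Psmd4 was -0.06 in T169A and -0.34 in B6. Under that scaling Psmd2 was lower in both genotypes (-0.22 in T169A, -0.23 in B6), and Psmd1 passed in neither.

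All 8 lid members rose in T169A cells and 4 of 8 in B6 cells. Psmd11, a lid scaffold subunit, had 88.4, 89.9 and 90.2 CPM in T169A cells with LPS against 43.8, 45.4 and 46.2 CPM unstimulated. B6 cells had 86.1, 86.5 and 87.4 CPM with LPS against 43.5, 45.5 and 46.0 CPM unstimulated. The log2 fold change was 0.99 ± 0.07 in T169A (edgeR adjusted p = 5.48e-10) and 0.94 ± 0.07 in B6 (edgeR adjusted p = 9.9e-10), and Psmd11 also rose in both genotypes with library size alone (0.41 in T169A, 0.35 in B6). Psmd14, the deubiquitinase of the lid, had 73.5 to 79.2 CPM with LPS against 41.1 to 41.9 CPM unstimulated in T169A (0.89 ± 0.08, edgeR adjusted p = 3.3e-08), and 70.6 to 75.2 against 43.3 to 51.1 CPM in B6 (0.63 ± 0.08, edgeR adjusted p = 2.15e-06). Psmd14 kept its T169A call with library size alone (0.31, edgeR adjusted p = 0.00281) and not its B6 call (0.04, edgeR adjusted p = 0.665). No other lid member was higher under that scaling. Psmd12 (-0.38 in T169A, -0.47 in B6) and Psmd13 (-0.28 in T169A, -0.48 in B6) were lower in both genotypes. Psmd3 (-0.38) and Psmd8 (-0.38) were lower in B6 and did not pass in T169A, and Psmd6 and Psmd7 passed in neither.

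Of the 7 assembly chaperones, 2 rose and 0 fell in T169A cells, and 1 rose and 2 fell in B6 cells. Psmd10, also called gankyrin, which helps build the base, had 56.9, 60.4 and 63.8 CPM in T169A cells with LPS against 24.3, 27.6 and 28.1 CPM unstimulated, and 55.1, 60.0 and 69.5 CPM in B6 cells with LPS against 26.6, 30.9 and 35.9 CPM unstimulated. It rose by 1.18 ± 0.11 in T169A (edgeR adjusted p = 3.63e-08) and 0.98 ± 0.11 in B6 (edgeR adjusted p = 3.37e-07). Psmd5, described with 5z7 below, rose slightly in T169A (0.19 ± 0.08, edgeR adjusted p = 0.0459) and did not pass in B6 (-0.02 ± 0.08, edgeR adjusted p = 0.832), and with library size alone it was lower in both (-0.39 in T169A, -0.61 in B6). Psmd9, another base chaperone, did not pass (0.12 in T169A, edgeR adjusted p = 0.467, and -0.16 in B6, edgeR adjusted p = 0.312). Scaled by library size alone, Psmd9 was lower in both genotypes (-0.47 in T169A, -0.75 in B6). The Psmg genes encode the chaperones of the alpha ring. Psmg1 had 6.01, 6.45 and 7.24 CPM in T169A cells with LPS against 7.78, 8.4 and 8.57 CPM unstimulated, and 6.08, 6.30 and 6.50 CPM in B6 cells with LPS against 6.66, 7.33 and 11.6 CPM unstimulated.

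The Psmg1 groups did not overlap in either genotype, and the fall passed in B6 (-0.42 ± 0.17, edgeR adjusted p = 0.0418) but not in T169A (-0.33 ± 0.17, edgeR adjusted p = 0.103). Psmg2 had 6.42 to 8.6 CPM with LPS against 8.70 to 10.16 CPM unstimulated in T169A, and 6.03 to 6.84 against 7.50 to 11.5 CPM in B6, and fell in B6 (-0.50 ± 0.16, edgeR adjusted p = 0.00976). These B6 calls rested on library 7: without it Psmg1 was -0.155 (edgeR adjusted p = 0.318) and Psmg2 -0.305 (edgeR adjusted p = 0.0587), and the Psmg1 call was also lost without library 2, 5 or 8. Psmg3 and Psmg4 did not pass in either genotype (0.22 and 0.07 in T169A, -0.37 and -0.37 in B6). With library size alone Psmg1 (-0.92 in T169A, -1.01 in B6) and Psmg2 (-0.90 in T169A, -1.10 in B6) were lower in both genotypes. Psmg3 (-0.96) and Psmg4 (-0.96) were then lower in B6 and did not pass in T169A.

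Psmf1, which encodes PI31, an adaptor first described as a proteasome inhibitor, had 26.1, 26.9 and 28.1 CPM in T169A cells with LPS against 27.8, 27.9 and 29.0 CPM unstimulated, and 25.2, 26.2 and 26.9 CPM in B6 cells with LPS against 28.3, 29.8 and 31.2 CPM unstimulated. The B6 groups did not overlap (-0.19 ± 0.07, edgeR adjusted p = 0.0274), a call lost without library 1, 2, 5 or 7, and the T169A groups did (-0.06 ± 0.07, edgeR adjusted p = 0.454). Psma8 (-0.17 in T169A, -0.19 in B6) and Psmc3ip (-0.37 in T169A, -0.84 in B6) were both under 2 CPM in every library and did not pass in either genotype. Scaled by library size alone, Psmf1 (-0.645 in T169A, -0.78 in B6) and Psma8 (-0.75 in T169A, -0.77 in B6) were lower in both genotypes. Psmc3ip was then lower in B6 (-1.43).

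**Figure D4:**
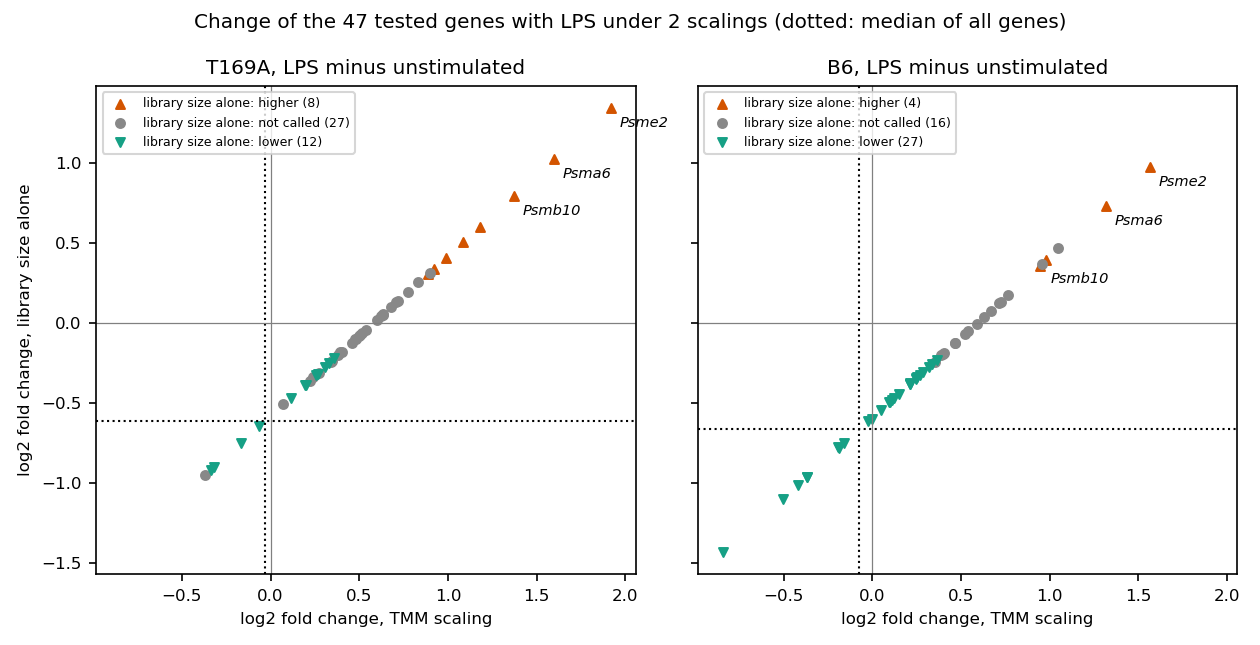
Log2 fold change with LPS of the 47 tested genes under TMM scaling (x axis) and library size alone (y axis), in T169A (left) and B6 (right); dotted lines are the all-gene medians and symbols give the call under library size alone. The points lie along a line, and 8 members in T169A and 4 in B6 remain called higher under both scalings, with Psme2 and Psma6 at the top.

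Library 7 carried a distinct pattern that bears on every comparison with unstimulated B6 cells. Its proteasome genes were a median of 0.38 log2 units above libraries 1 and 4, with 39 of the 44 members compared above them. Among these members the deviation correlated with log2 transcript length at r = -0.77, so short transcripts were high, and over 11434 genes at r = -0.68; genes within a library are not independent. Other libraries showed the same relation in either sign, including library 8 of the B6 LPS group (r = -0.68 among the members) and library 17 of the T169A LPS group (-0.60). Without library 7, 35 members rose with LPS in B6 cells and 0 fell, with a median log2 fold change of 0.41. Over all genes, 4129 rose and 4480 fell in that setting. The part of transcript length in the members' changes was not tested beyond this.

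**Figure D5:**
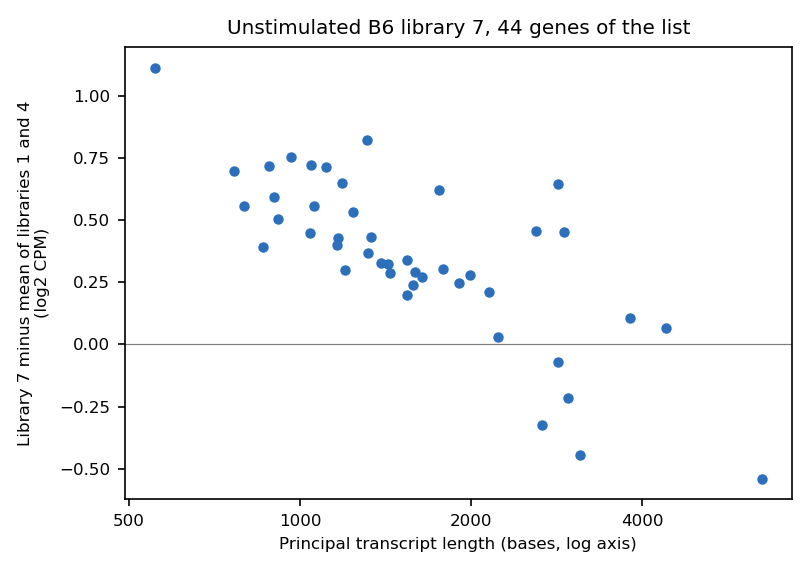
Log2 CPM in library 7 minus the mean of libraries 1 and 4, all unstimulated B6, against principal transcript length (log axis), 1 point for each of 44 members. Most points are above 0, and the shorter transcripts lie highest.

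Adding 5z7 to LPS gave few calls in the set. Against LPS alone, 2 members rose and 1 fell in T169A cells, where 6.50% and 6.53% of all genes did, and 1 rose and 0 fell in B6 cells, where 7.03% and 6.79% did. The median log2 fold change of the members was -0.05 in T169A and -0.10 in B6, with all-gene medians of 0.02 in both. Library size alone moves the all-gene median by 0.16 in both genotypes. In B6, Psma6 and Psmd11 were lower at an unadjusted p under 0.05, which 3364 of all 13068 genes reached in either direction. DESeq2 called 2 members lower in B6. With DESeq2 size factors in edgeR, 1 member was lower in B6, as were 1030 of all 13068 genes.

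Psmd5 (ENSMUSG00000026869.13, chromosome 2), a chaperone that holds base modules before the cap closes, was the member that rose with 5z7 in both genotypes. It had 34.4, 34.4 and 35.4 CPM in T169A cells with LPS/5z7, 25.3, 26.2 and 28.7 CPM with LPS, and 22.4, 22.8 and 24.8 CPM unstimulated. B6 cells had 33.2, 34.1 and 36.6 CPM with LPS/5z7, 23.6, 26.5 and 27.4 CPM with LPS, and 24.9, 27.0 and 27.1 CPM unstimulated. All 6 LPS/5z7 libraries were above all the others. Against LPS alone the log2 fold change was 0.38 ± 0.08 in T169A (edgeR adjusted p = 0.00435) and 0.42 ± 0.08 in B6 (edgeR adjusted p = 0.00188), and it stayed past the threshold whichever library was left out. With library size alone it was 0.54 in T169A and 0.58 in B6 against LPS, while against unstimulated cells it was 0.15 in T169A (edgeR adjusted p = 0.124) and -0.03 in B6 (edgeR adjusted p = 0.766).

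Psmf1 had 31.3, 31.6 and 33.3 CPM in T169A cells with LPS/5z7 and 29.0, 29.3 and 32.0 CPM in B6 cells, above all LPS libraries of the same genotype given above. The difference from LPS passed in T169A (0.25 ± 0.07, edgeR adjusted p = 0.0284) and not in B6 (0.20 ± 0.07, edgeR adjusted p = 0.0662). With libraries blocked in sets of consecutive numbers, the B6 difference passed (0.202, edgeR adjusted p = 0.0433). Leaving out library 11, 14, 15 or 18 ended the T169A call. Psmf1 passed in both genotypes with library size alone (0.405 in T169A, edgeR adjusted p = 0.00144; 0.369 in B6, edgeR adjusted p = 0.00283). Psmd11 had 74.6, 75.5 and 79.8 CPM in T169A cells with LPS/5z7 and 73.3, 74.4 and 80.7 CPM in B6 cells, below all LPS libraries and above all unstimulated ones. It was lower than with LPS alone in T169A (-0.22 ± 0.06, edgeR adjusted p = 0.0274) and did not pass in B6 (-0.19 ± 0.06, edgeR adjusted p = 0.0635). That T169A call was lost without library 11, 14, 15, 17 or 18, and with library size alone the values were -0.07 in T169A and -0.02 in B6.

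Psme2, Psmb10, Psma6 and Psmd10, among the members that LPS raised most, did not pass against LPS alone when 5z7 was added. Psme2 had 347, 353 and 373 CPM in T169A cells with LPS/5z7 and 319.7, 330.4 and 331 CPM in B6 cells, a difference from LPS of 0.04 in T169A (95% interval -0.29 to 0.36) and -0.06 in B6 (-0.39 to 0.26). Psmb10 had 160.3, 168 and 168 CPM in T169A cells and 144, 147 and 157 CPM in B6 cells with LPS/5z7, a difference from LPS of 0.09 (-0.28 to 0.46) in T169A and 0.04 (-0.33 to 0.41) in B6. Psma6 had 245, 253 and 279 CPM in T169A cells and 218, 226 and 239.7 CPM in B6 cells, a difference from LPS of -0.17 in T169A (edgeR adjusted p = 0.442) and -0.28 in B6 (edgeR adjusted p = 0.137). For Psmd10 the difference from LPS was -0.01 (-0.23 to 0.21) in T169A and -0.11 (-0.33 to 0.11) in B6. A p that missed the threshold does not show that LPS/5z7 and LPS gave the same level, and these intervals allow changes of up to about 0.5 log2 units.

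Against unstimulated cells, LPS/5z7 gave 36 members higher and 1 lower in T169A (28.1% and 27.5% of all genes) and 20 higher and 2 lower in B6 (27.6% and 27.9%). These comparisons share their unstimulated libraries with the LPS comparisons above. In T169A the largest rises were Psme2 (1.96), Psmb10 (1.46), Psma6 (1.43) and Psmd10 (1.17). In B6 the largest were Psme2 (1.505), Psma6 (1.04), Psmb10 (1.003) and Psme2b (0.935, edgeR adjusted p = 0.0197), with Psmd10 at 0.87. Psme2b had 5.41, 5.504 and 5.745 CPM in B6 cells with LPS/5z7 and was not called in T169A. Its B6 call was lost without library 3 or 7, with no filter, and with library size alone (0.514, edgeR adjusted p = 0.143). The lower calls were Psmg1 in T169A cells (4.87, 5.98 and 6.98 CPM with LPS/5z7; -0.48 ± 0.17, edgeR adjusted p = 0.0264), lost without library 10, 12, 15 or 16, and Psmg2 and Psmg3 in B6 cells. In B6, Psmg2 changed by -0.38 ± 0.16 (edgeR adjusted p = 0.0479) and Psmg3 by -0.47 ± 0.19 (edgeR adjusted p = 0.0486), and neither passed without library 3, 6 or 7, nor Psmg2 without library 9. The B6 groups overlapped for Psmg3 and not for Psmg2. With library size alone 10 members were higher and 6 lower in T169A, and 5 higher and 18 lower in B6. Over all genes, that scaling called 1975 higher and 6999 lower in T169A, and 2075 and 7334 in B6.

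Between genotypes no member passed in any condition. Comparing T169A with B6, 0 of 47 passed in unstimulated cells, where 0.214% of all genes did, 0 with LPS (0.222%) and 0 with LPS/5z7 (0.161%), by edgeR and also by DESeq2. An unadjusted p under 0.05 was reached by 2 members unstimulated, 0 with LPS and 2 with LPS/5z7. Over all 13068 genes tested, 694, 729 and 766 reached it in these conditions. For the members, the values were as follows. The smallest were Psmd14 (-0.17, 95% interval -0.34 to -0.004, edgeR adjusted p = 0.924) and Psmd5 (-0.17, -0.34 to -0.002, edgeR adjusted p = 0.931) in unstimulated cells, and Psmg2 (0.36, 0.03 to 0.70, edgeR adjusted p = 0.766) and Psmg3 (0.43, 0.01 to 0.85, edgeR adjusted p = 0.766) with LPS/5z7. Psmg3, an alpha ring chaperone, had 5.49, 6.05 and 6.43 CPM in T169A cells and 3.91, 4.43 and 4.93 CPM in B6 cells with LPS/5z7, without overlap. With LPS the smallest were Psmg2 (0.23, edgeR adjusted p = 0.876) and Psmd8 (0.15, edgeR adjusted p = 0.876).

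More members passed with LPS in T169A than in B6 cells, but the difference of the effects was not established for any of them. The effect of LPS in T169A minus that in B6 had a median of 0.19 over the members, against 0.01 over all genes, and 0 of 47 members passed, as did 0 of all genes tested (0%), with 2 members at an unadjusted p under 0.05. Those were Psmd14 (0.26 ± 0.11, edgeR adjusted p = 0.916) and Psmg3 (0.59 ± 0.27, edgeR adjusted p = 0.916). Over all 13068 genes tested, 421 reached that unadjusted p. For Psme2 the difference of effects was 0.35 (95% interval -0.11 to 0.81), and for Psmb10 0.41 (-0.11 to 0.93). The median difference rested largely on library 7: without it the value was 0.06. Of the 37 members called higher in T169A and the 24 in B6, 23 were shared, 62.2% of the T169A list and 95.8% of the B6 list. The same overlap was not counted over all genes, so whether these shares are particular to the members was not tested.

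For the effect of 5z7 added to LPS, the difference between genotypes had a member median of 0.05, with 0 members passing and 0 at an unadjusted p under 0.05. For LPS/5z7 against unstimulated cells the median difference was 0.24, or 0.11 without library 7, with 0 passing and 6 at an unadjusted p under 0.05. These were led by Psmg3 (0.82 ± 0.27, edgeR adjusted p = 0.83) and Psmd6 of the lid (0.32 ± 0.13, edgeR adjusted p = 0.83). Over all 13068 genes tested, 151 reached that unadjusted p for 5z7 added to LPS, and 461 for LPS/5z7 against unstimulated cells.

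Other genes of the pathway were read from a list of 27 symbols that matched the table and passed the filter. With LPS 15 rose and 2 fell in T169A cells, where 30.3% and 31.5% of all genes did, and 11 rose and 5 fell in B6 cells, where 29.6% and 33.5% did. Among the proteasome-bound and assembly factors, Txnl1, a thioredoxin-like protein of the cap, rose by 1.37 ± 0.09 in T169A (edgeR adjusted p = 8.13e-10) and 1.12 ± 0.09 in B6 (edgeR adjusted p = 1.01e-08). Uba6, a ubiquitin-activating enzyme, rose by 0.82 ± 0.23 in T169A (edgeR adjusted p = 0.00511) and 1.09 ± 0.23 in B6 (edgeR adjusted p = 0.000527). Nfe2l1, the transcription factor of subunit genes, rose by 0.74 ± 0.11 in T169A (edgeR adjusted p = 1.25e-05) and 0.96 ± 0.11 in B6 (edgeR adjusted p = 5.21e-07). Ddi2, the protease that activates NFE2L1, fell to 22.8 ± 3.64 CPM in T169A cells with LPS, against 174 ± 10.3 CPM unstimulated, and to 23.2 ± 0.622 against 154 ± 33.3 CPM in B6 cells (SD, n = 3 each). Library size alone lowers each of these by about the shift given above. The log2 fold change of Ddi2 was -2.93 ± 0.15 in T169A (edgeR adjusted p = 1.5e-11) and -2.73 ± 0.14 in B6 (edgeR adjusted p = 3.43e-11).

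With 5z7 added to LPS, 0 of the 27 rose and 2 fell in T169A cells (6.50% and 6.53% of all genes), and 0 rose and 1 fell in B6 cells (7.03% and 6.79%). Zfand5, a zinc-finger protein that stimulates the 26S proteasome, had 104 ± 5.81 CPM with LPS/5z7 against 245 ± 13.1 CPM with LPS in T169A, and 117 ± 9.01 against 276 ± 15.5 CPM in B6. It fell by 1.23 on the log2 scale in T169A (edgeR adjusted p = 9.11e-06) and by 1.23 in B6 (edgeR adjusted p = 8.82e-06), and was also lower than in unstimulated cells in T169A (-0.52 ± 0.14, edgeR adjusted p = 0.00337) and in B6 (-0.59 ± 0.14, edgeR adjusted p = 0.00141). Akirin2, which helps carry proteasomes into the nucleus, fell in T169A (-0.37 ± 0.11, edgeR adjusted p = 0.0373) and did not pass in B6 (-0.25 ± 0.11, edgeR adjusted p = 0.162). For LPS/5z7 against unstimulated cells 12 rose and 3 fell in T169A (28.1% and 27.5% of all genes), and 11 rose and 6 fell in B6 (27.6% and 27.9%), with Ddi2 at -2.58 in T169A (edgeR adjusted p = 7.19e-11) and -2.35 in B6 (edgeR adjusted p = 2.32e-10). No gene of the list passed between genotypes or in the differences of effects.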

How the data were processed

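RNA was extracted with TRIzol and made into directional TruSeq libraries, per the labels' protocols. The authors deposited whole-number raw counts for each gene; the submitters' processing notes name Trim Galore, STAR, featureCounts and GRCm39. Versions, strand setting and treatment of reads that match several genes are not given in the sources used here, so overlapping, antisense and near-identical genes are uncertain. Libraries are called by the running number in their column name, which also shows the group. Symbols came from a table of gene names (52029 IDs, 91.4%, matched), and gene types and transcript lengths from GENCODE M21 on an older build. The analysis used edgeR 4.0.16 (R 4.3.3): filterByExpr by group (13068 genes kept), TMM, a robust quasi-likelihood fit of 6 group means over 18 libraries, F-tests, and Benjamini-Hochberg adjustment over all genes, threshold 0.05. SE was taken as the size of the log2 fold change over the root of its F statistic. CPM use TMM-scaled library sizes; a floor of 3 counts is 0.0986 to 0.205 CPM, and such limits cover counting error only. The fit was tested on simulated data. Figures used matplotlib 3.10.9. Values per library were printed for the 4 called members with the largest change in each direction per treatment comparison, the 2 smallest p between genotypes, and a set of 13 catalytic, activator and regulatory members; further members were named after their values were seen. From the pathway list, the 3 called genes with the largest change per treatment comparison were named. The members and lists were chosen with earlier results of these data known. Alternatives were other scalings (DESeq2 size factors, library size), filters and thresholds, DESeq2 1.42.0, the compared groups alone, a replicate block and each library left out.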

Additional observations from a re-analysis of the deposited data

How the results depend on the processing

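With library size alone the members called higher and lower were 8 and 12 for LPS in T169A, 4 and 27 for LPS in B6, 10 and 6 for LPS/5z7 against unstimulated T169A, and 5 and 18 in B6. Against LPS, 5z7 gave 2 higher in B6 and 0 lower in T169A. Over all genes, 5z7 against LPS then gave 2177 higher and 530 lower in T169A, and 2339 and 516 in B6. Under library size alone the log2 fold change turned negative for 24 of 47 members with LPS in T169A and 26 in B6, and for 18 in T169A and 26 in B6 with LPS/5z7 against unstimulated. It turned positive for 25 in T169A and 32 in B6 with LPS/5z7 against LPS. Some members printed per library were called under either scaling and turned. With LPS these were Psmb5 (-0.08), Psmd4 (-0.063) and Psmd5 (-0.387) in T169A, and Psmb5 (-0.38), Psmb7 (-0.189), Psme4 (-0.199) and Psmd4 (-0.34) in B6. With LPS/5z7 against unstimulated they were Psmb5 (-0.004) and Psmf1 (-0.24) in T169A, and Psmf1 (-0.412), Psmd4 (-0.283) and Psmd5 (-0.029) in B6. For LPS in B6, members called higher were 30 with DESeq2 or its size factors, 29 with the replicate block and 19 with the compared groups alone, which gave 14 for LPS/5z7 against unstimulated. The all-gene counts for LPS in B6 were 4091 higher with DESeq2 size factors, 4147 with the block and 3372 with the compared groups alone. Those groups alone gave 2992 of all genes higher for LPS/5z7 against unstimulated in B6. For LPS in B6, members called lower were 1 with DESeq2 size factors, with DESeq2 or at an adjusted p under 0.01, and 0 with the compared groups alone. For 5z7 against LPS, T169A had 1 higher and 0 lower at 0.01, with no filter or with the compared groups alone, and B6 had 1 lower with DESeq2 size factors or the compared groups alone and 2 lower with DESeq2. For LPS/5z7 against unstimulated, lower members were 0 at 0.01 in T169A and B6, and 0 in B6 with the compared groups alone, which gave 1 lower for LPS in T169A. Leaving out each library gave 31 to 36 members higher with LPS in T169A, 22 to 35 in B6, 30 to 32 with LPS/5z7 against unstimulated in T169A and 16 to 28 in B6; lower members ran from 0 to 3 for LPS in B6, 0 to 3 for LPS/5z7 against unstimulated in B6, and 0 to 1 for both comparisons in T169A. For 5z7 against LPS in T169A the ranges were 1 to 2 higher and 0 to 1 lower. Over all genes, the B6 settings with 22 and 35 members higher with LPS gave 3771 and 4129 higher. Those with 16 and 28 members higher for LPS/5z7 against unstimulated gave 3310 and 3808. Same-numbered sets of libraries (consecutive running numbers) deviated together at r = -0.043 to 0.414 over 18 pairs, against -0.406 to 0.374 over the other 36. The ranges overlap, but most same-set values were positive and most others negative, so the sets may be paired. The main fit did not pair them. A replicate block by these sets gave 2 higher and 1 lower for 5z7 against LPS in B6 and 1 lower for LPS in T169A. Over all genes, the block gave 1236 higher and 1211 lower for 5z7 against LPS in B6, and 4425 lower for LPS in T169A. With the block, Psmf1 in B6 against LPS (0.202, edgeR adjusted p = 0.0433), Psmd4 with LPS in B6 (0.262, 0.0183), Psme4 with LPS in T169A (0.257, 0.0277) and Psme4 with LPS/5z7 against unstimulated B6 (0.378, 0.0034) passed. The causes were not tested. Genotype comparisons gave 0 members under all alternatives run. With 3 libraries a group, changes well above 0.2 log2 units could also miss the threshold. For Psmg3, T169A against B6 with LPS/5z7 was 0.431 (edgeR adjusted p = 0.766). Its difference of effects for LPS/5z7 against unstimulated was 0.816 (edgeR adjusted p = 0.83). A missed threshold therefore does not show equal levels.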
